A study of Mus musculus with 24 samples.

Results

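Cytosolic ribosomal protein genes encode the proteins that join ribosomal RNA to build the small and the large subunit of the ribosome outside mitochondria. They were chosen here by name: protein-coding genes called Rps or Rpl with a number, including paralogs such as Rps27l, together with Rpsa, Rplp0, Rplp1 and Rplp2, and without mitochondrial ribosomal proteins, ribosomal S6 kinases and pseudogenes. Of 84 genes so named, 82 were above 1 CPM (counts per 1000000 of a library) in at least 3 of 24 libraries, among 19103 genes that passed the same filter. Rpl3l and Rpl10l did not pass. By role, 43 of the 82 encode large-subunit proteins, 31 small-subunit proteins, 3 the stalk proteins Rplp0, Rplp1 and Rplp2, and 5 are paralogs of another member (Rps27l, Rpl36al, Rpl7l1, Rpl22l1 and Rpl39l). Rpl39l was the only member under 1 CPM in any library.

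The libraries are from T cells of C57BL/6 mice, either wild type (WT) or Cat-Tg, a transgenic line that overexpresses human β-catenin, the transcriptional co-activator of the Wnt pathway. The transgene encodes a β-catenin shortened at its N terminus, was made on the FVB background, and was bred onto C57BL/6 and kept heterozygous. The promoter that drives it is not named in the sources used here. The mice of the study were 8 to 12 weeks old. CD4+ and CD8+ cells were taken from donor spleens before transplantation (pre-tx), or were sorted as donor cells from the spleens of lethally irradiated BALB/c recipients at day 7 (post-tx), after transfer of equal numbers of CD4+ and CD8+ T cells with T-cell-depleted WT bone marrow. Each of the 8 groups had 3 libraries from 3 mice, and the CD4+ and CD8+ cells of a genotype and time came from the same mice, so the CD4+ and CD8+ libraries are not independent of each other. Post-tx cells had therefore been in an irradiated allogeneic host, and the BALB/c recipient and the bone marrow were the same for Cat-Tg and WT donors. All sample names of Cat-Tg libraries carry 1 prefix and all those of WT libraries another, so a run or preparation that differed between them and the genotype cannot be told apart.

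Ribosomal protein mRNAs are among the most abundant in any growing cell, and ribosome production is a major cost of the growth and division of an activated T cell. Most of them begin with a terminal oligopyrimidine (TOP) tract, a cytosine followed by a run of pyrimidines, through which mTORC1, the nutrient and growth factor kinase, controls their translation as a group. Several members have uses of their own: Rps6 is the substrate of the S6 kinases, Rpl5 and Rpl11 bind Mdm2 and so stabilise p53, and Rps27l is a p53 target gene. Each library was made from the same small mass of total RNA, so every level below is a share of the RNA of the sorted population. In such bulk samples fewer cells of a type and less RNA per cell cannot be told apart.

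The sequence around the annotated start was read for the 62 members that have an entry in the RefSeq promoter table (GRCm38.p6). A run of at least 8 uninterrupted C or T bases lay in the 30 bases around the start in 25 members, or 40.3%, against 11.9% of all 27025 genes in the table. The run covered the start itself in 22.6% of the members and 3.7% of all genes, and the start base was C in 33.9% and 16.2%. The windows below show 4 members named in the results, with 15 bases before the start and 15 from the start on, on the gene's strand. The longest run of C and T is in capitals. Rps27 and Rps24 were among those that fell furthest after transplantation of Cat-Tg cells, Rps6 fell with the other members, and Rps27l departed from the others in each transplant comparison. The windows are chr3:90213634-90213663 on the minus strand for Rps27, chr14:24490663-24490692 on the plus strand for Rps24, chr4:86857353-86857382 on the minus strand for Rps6 and chr9:66946071-66946100 on the plus strand for Rps27l.
Rps27: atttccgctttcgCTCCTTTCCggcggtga
Rps24: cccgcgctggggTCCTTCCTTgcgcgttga
Rps6: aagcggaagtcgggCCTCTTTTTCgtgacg
Rps27l: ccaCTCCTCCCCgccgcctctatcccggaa
In Rps27, Rps24 and Rps6 the run reaches over the start, and in Rps27l it ends before it. The windows of Rpl36al (chr12:69184053-69184082, minus strand) and Rpl7l1 (chr17:46782642-46782671, minus strand), paralogs that also parted from the other members, hold only short runs.
Rpl36al: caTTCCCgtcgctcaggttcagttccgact
Rpl7l1: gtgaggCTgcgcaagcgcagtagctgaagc
Other members did not follow this pattern. Rps7, also among those that fell furthest in Cat-Tg, has a longest run of 5 bases that does not reach the start. Rpl7a and Rpl28, which departed above the others in Cat-Tg, have runs of 21 and 11 bases over the start. An annotated start can lie some bases away from the start used in these cells, so a run is a description of the letters in the window.

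Library totals ran from 11135713 to 50519825 estimated counts, with a median of 27062440, and 3 counts corresponded to between 0.0594 and 0.269 CPM. The 6 WT pre-tx libraries went against their labels. Cd8a, which encodes the coreceptor α chain of CD8+ cells, made up 50 to 63.9% of the summed Cd8a and Cd4 counts in the WT CD8 pre-tx libraries and 52.4 to 65.4% in the WT CD4 pre-tx libraries, against 99 to 99.9% in the other CD8 groups and 0.0895 to 3.39% in the other CD4 groups. In the same 6 libraries a list of 17 B-cell markers, all measured, summed to 16300 to 22700 CPM, against 591 to 5220 CPM elsewhere, and 14 T-cell markers summed to 2330 to 4210 CPM against 6210 to 19000 CPM. The libraries labelled WT pre-tx are used below under that label. They enter all comparisons of pre-tx with post-tx in WT, all of Cat-Tg with WT before transplantation, the interaction tests, and the share and ratio tests over 4 combinations, and their removal would leave no WT pre-tx group. Their part in those results was not tested. A list of 17 cell-division genes summed to 1700 to 5520 CPM in post-tx libraries and to 378 to 673 CPM in pre-tx libraries. The list of red-cell genes, 10 of 11 measured, reached 27200 CPM in the Cat-Tg CD4 post-tx group, which also holds the library of the lowest depth, and 27000 CPM in the WT CD4 pre-tx group.

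The 82 genes together held between 3.65 and 19.2% of all counts. The share was highest in Cat-Tg cells before transplantation, at 17.8% ± 1.4 (SD, n = 3) in CD8 pre-tx and 13.6% ± 1.79 in CD4 pre-tx. It was 5.85% ± 0.339 in Cat-Tg CD8 post-tx, 4.52% ± 1.07 in Cat-Tg CD4 post-tx and 4.89% ± 0.414 in WT CD4 post-tx. WT CD8 post-tx libraries held more, at 12.5%, 8.28% and 8.57% of counts. With the label WT pre-tx the share was 5.7% ± 0.828 in CD8 and 7.94% ± 1.23 in CD4.

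**Figure D1:**
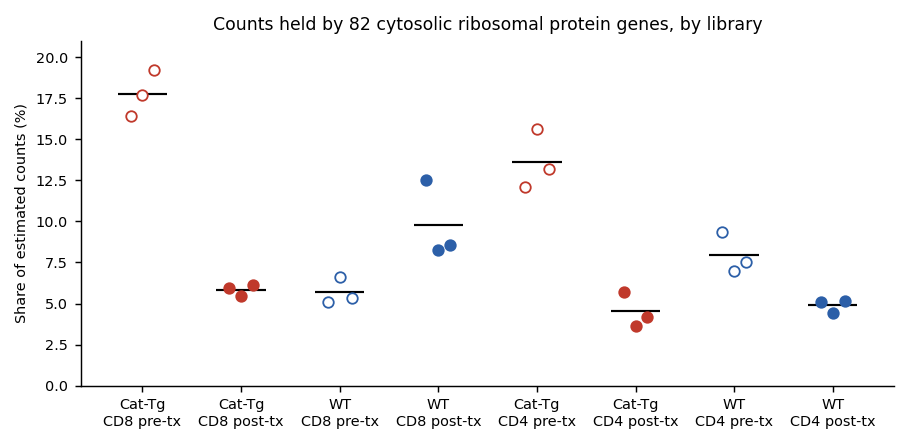
Percent of all estimated counts held by the 82 cytosolic ribosomal protein genes, 1 point per library (red Cat-Tg, blue WT, open pre-tx, filled post-tx), with a line at the mean of each group of 3. The 6 Cat-Tg pre-tx libraries sit between 12.1 and 19.2%, and all 6 Cat-Tg post-tx libraries sit at 6.12% or below.

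In the share tests, CD8 and CD4 libraries were first permuted separately. Since these share mice, each test was repeated with same-numbered CD8 and CD4 libraries of a group kept together, which takes the replicate number as the mouse and was chosen after the values were seen. Over the 4 combinations of genotype and cell type, which include the libraries labelled WT pre-tx, the share was 5 percentage points lower post-tx than pre-tx (mean difference -5.0, exact two-sided permutation test within the combinations, p = 0.00524), and it was lower in 3 of the 4, the exception being WT CD8. With the numbers kept together the exact permutation p was 0.065, and the difference no longer passed. Within Cat-Tg, where no library went against its label, the difference was -10.5 points in the mean of CD8 and CD4, with p = 0.005, the smallest value this exact test allows. Kept together, the test has 3 mice against 3, and its exact permutation p was 0.1, again the smallest it allows, so the design cannot reach 0.05 there. Counts favour long transcripts and the member mRNAs are short. On the deposited TPM scale, which divides by transcript length, the members held 34.1% ± 2.18 of Cat-Tg CD8 pre-tx and 13.5% ± 0.458 of Cat-Tg CD8 post-tx RNA. Between genotypes the share was 3.37 points higher in Cat-Tg in the mean of the 4 combinations of time and cell type (exact permutation p = 0.0379), made up of 2 combinations higher, both pre-tx and against the libraries labelled WT pre-tx, and 2 lower. That p was 0.1 in the exact permutation test with the numbers kept together, and it rose past 0.05, up to 0.0591, for 8 of the 24 libraries when each was left out in turn. The ratio of summed Rpl to Rps counts, with stalk genes and paralogs included, was 0.998 to 1.09 in Cat-Tg pre-tx libraries. It was 1.14 to 1.4 in Cat-Tg post-tx libraries, without overlap. WT CD8 went the other way, from 1.2 to 1.22 in libraries labelled pre-tx down to 1.06 to 1.08 post-tx. WT CD4 had 1.12 to 1.14 pre-tx and 1.22 to 1.28 post-tx.

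CPM values below were scaled within a cell type, so those of CD8 and CD4 libraries are not on 1 scale. Per length, Rps27 and Rpl41, which encodes the smallest ribosomal protein, were among the members of highest median level over the 24 libraries, at 6730 TPM (range 2309 to 31240) and 6560 TPM (range 3065 to 17470). Rps27 and Rpl41 differ by far less than the spread of either over the libraries. The paralogs stood low in this order: Rps27l had a median of 357.6 TPM, Rpl22l1 188.1, Rpl7l1 49.51 and Rpl39l 2.847 TPM. Rpl5 at 15.43 TPM and Rpl12 at 43.54 TPM were also low. Of the counts of Rpl5 and of the copies that share its sequence, only 1.9% stood at Rpl5, and 5.0% at Rpl12. Whether the counts at the copies came from reads of these genes was not tested. In all, 63 of the 82 members shared at least 50% of their 31-base words with other annotated transcripts. For Rpl5, Rpl12, Rpl35 (41.3% of the counts at the member), Rpl27a (42.2%), Rpl28 (45.6%), Rps23 (47.5%), Rpl10 (52.7%), Rpl7a (76.6%) and Rps7 (84.5%) the values are therefore uncertain, while Rps27l, Rpl8, Rpl7l1, Rplp0, Rps24 and Rps6 held at least 98.3% of such counts.

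Most members rose and fell together. The log2 level of a member correlated with the mean of the other members at a median r of 0.89 over the 24 libraries, which share their composition and depth, and 38 members had an r of at least 0.9. The 8 members under 0.7 included Rpl7l1 at 0.27, Rpl36al at 0.43, Rps27l at 0.45, Rpl8 at 0.52, Rpl29 at 0.56 and Rplp0 at 0.56. The low values thus belonged to paralogs, to Rplp0, which anchors the stalk, and to a few large-subunit genes.

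**Figure D2:**
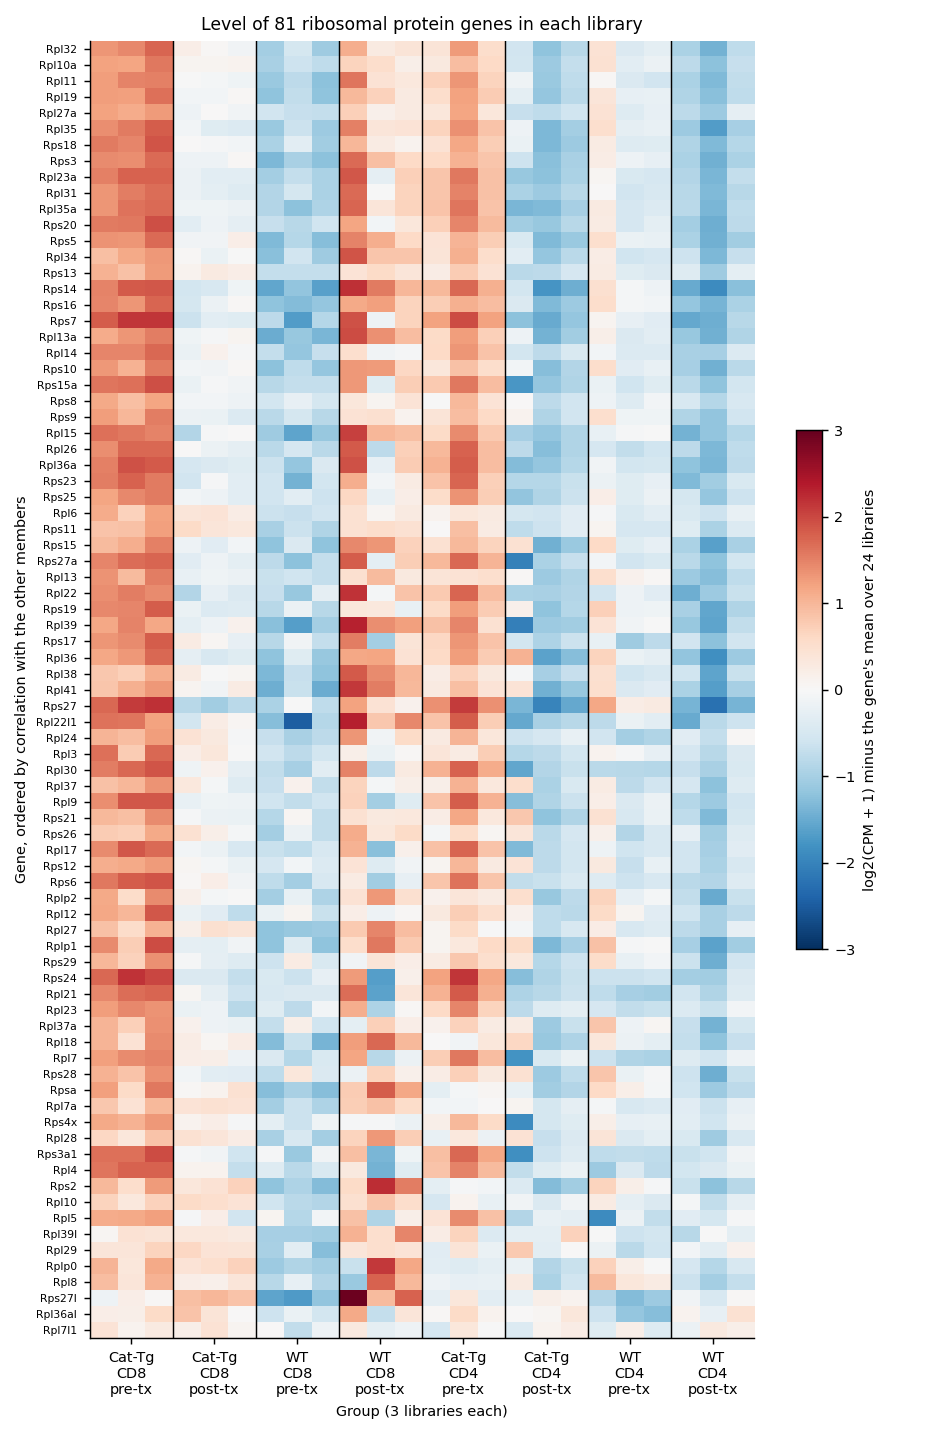
Log2(CPM + 1) of 81 of the 82 members minus that gene's mean over the 24 libraries (red higher, blue lower), on a scale common to all libraries, with genes ordered from the highest correlation with the other members at the top to the lowest at the bottom. Most genes are highest in the Cat-Tg CD8 pre-tx libraries and low in the CD4 post-tx libraries, while Rps27l, Rpl36al and Rpl7l1 at the bottom do not follow the others.

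The comparison of Cat-Tg cells before and after transplantation asks how expression of the ribosomal protein genes moved between a donor T cell before transfer and the same cell type after 7 days in the host. In CD8 cells 57 of the 82 members fell and none rose, by edgeR's quasi-likelihood test with Benjamini-Hochberg adjustment at 0.05 over 15982 genes, of which 5.25% fell and 8.73% rose. The median log2 fold change of the members was -1.43, against -0.26 for all genes tested, and 71 members had no overlap between the 3 post-tx and the 3 pre-tx libraries on the lower side, against 24.5% of all genes. In CD4 cells 66 members fell and none rose, where 29% of 17253 genes fell and 16.2% rose. The median was -1.73 for the members and -0.38 for all genes, and 67 members did not overlap on the lower side, against 35.8% of all genes, and none on the higher side, against 19.9%. CD8 and CD4 libraries share their mice, and across the 82 members their changes correlated at r = 0.87. Leaving out any 1 library gave 31 to 51 called members in CD8 and 59 to 76 in CD4, always lower.

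Markers of other cells moved in the same comparisons. In Cat-Tg CD4, 8 of 15 myeloid markers rose and 1 fell (median 1.45), and their summed level was 1690 to 2500 CPM pre-tx and 4160 to 5710 CPM post-tx. Of 10 red-cell genes 7 rose (median 2.60), from 1340 to 2130 CPM in sum up to 4570 to 27200 CPM. Of 17 B-cell markers 14 fell (median -4.08), although their sums overlapped at 3430 to 4750 CPM and 2500 to 5220 CPM, and of 14 T-cell markers 6 fell (median -0.39), from 9180 to 10800 CPM down to 6210 to 7830 CPM. In Cat-Tg CD8, 13 of 17 B-cell markers fell (median -3.36), from 1320 to 3030 CPM in sum down to 886 to 910 CPM, and 3 of 15 myeloid markers rose while 4 fell. No T-cell marker fell there, and 1 rose. Of the 17 cell-division genes 14 rose in CD8 and 15 in CD4. The part of these lists in the fall of the members was not tested.

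**Figure D3:**
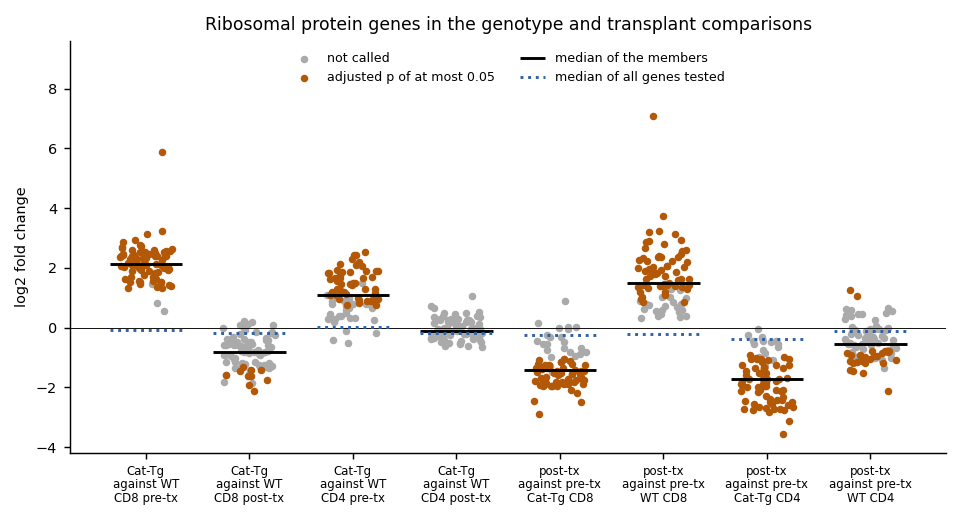
Log2 fold change of every member in the genotype and transplant comparisons, 1 point per gene (orange where the adjusted p is at most 0.05), with a solid line at the median of the members and a dotted line at the median of all genes tested. Most members lie below the dotted line in both Cat-Tg transplant comparisons and above it in WT CD8. The highest points of CD8 pre-tx and of WT CD8 are Rpl39l, which had 0 or 1 counts in the WT CD8 pre-tx libraries.

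Small-subunit genes fell in 25 of 31 cases in CD8 and in 29 of 31 in CD4. Rps6, the S6 kinase substrate, had 3054, 3565 and 3723 CPM in Cat-Tg CD8 pre-tx and 1058, 1148 and 981 CPM post-tx. All post-tx libraries lay below all pre-tx libraries. The log2 fold change was -1.70 ± 0.35 (SE, adjusted p = 0.00547, edgeR), and in CD4 it was -2.10 ± 0.245 (adjusted p = 2.15e-05, edgeR). Rps3, which also acts in DNA repair, fell by 1.58 in CD8 and by 2.08 in CD4 on the log2 scale. Rps19, the gene most often mutated in Diamond-Blackfan anemia, fell by 1.89 and 1.72. Rps27a, which is made as a fusion with ubiquitin, fell by 1.89 and 2.74. Rpsa, also known as the laminin receptor precursor, was among the least changed of this subunit, at -0.96 in CD8 (adjusted p = 0.0727) and -0.91 in CD4 (adjusted p = 0.0107), and the call in CD4 was lost under 6 other settings of the analysis.

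Large-subunit genes fell in 30 of 43 cases in CD8 and in 36 of 43 in CD4. Rpl11, which binds Mdm2, had 849, 1002 and 996 CPM in Cat-Tg CD8 pre-tx and 357, 329 and 333 CPM post-tx. The groups were far apart, and the log2 fold change was -1.48 in CD8 and -1.86 in CD4. Rpl10a, linked to translation of chosen mRNAs, fell by 1.23 and 1.72, and Rpl13a, an interferon-gated inhibitor of translation when free of the ribosome, fell by 1.34 and 1.96. Rpl38, which favours translation of Hox mRNAs, had a log2 fold change of -0.76 in CD8 (adjusted p = 0.114) and fell by 1.25 in CD4. Of the abundant members, Rpl41 had a change of -0.98 in CD8 (adjusted p = 0.0671) and fell by 1.34 in CD4. Of the stalk genes Rplp1 fell by 1.66 in CD8, and Rplp0 and Rplp2 did not pass in CD8 (-0.31 and -1.04), nor did any of the 3 in CD4 (-0.54 to -1). The CD8 calls of Rplp1 and Rpl10a were lost in 3 of 6 fits that left out a library. Those of Rpl11 and Rpl13a were lost in 2 of 6.

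In CD4 the stalk values rest on unlike libraries. Rplp1 had 1250, 1494 and 1867 CPM in Cat-Tg CD4 pre-tx and 1475, 378 and 461 CPM post-tx. The post-tx library at 1475 CPM is the one of lowest depth, and it overlaps the pre-tx group while the other two do not. The same library held 180 CPM of Rps27a beside 371 and 422 CPM, so its members were not shifted in 1 direction.

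A second fit of each comparison was scaled on the members alone, so that a gene is compared with the other ribosomal protein genes and not with the transcriptome. A member is said to depart where this fit gave an adjusted p of at most 0.05 and a log2 difference of at least 1. For a single member, the call counts as kept without a library where the adjusted p stayed at most 0.05, at any size of difference. By this measure 8 members departed in Cat-Tg CD8 (7 above, 1 below) and 13 in Cat-Tg CD4 (9 above, 4 below), where 39.5% and 57.8% of all genes did so.

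Rps27 is the member that fell furthest in both cell types. It had 3867, 5012 and 5282 CPM in Cat-Tg CD8 pre-tx and 668, 549 and 689 CPM post-tx, and 3956, 6723 and 4134 CPM in Cat-Tg CD4 pre-tx and 502, 321 and 416 CPM post-tx. The pre-tx and post-tx libraries lay far apart in both cell types. The log2 fold changes were -2.89 ± 0.371 (adjusted p = 0.00017) and -3.58 ± 0.339 (adjusted p = 4.43e-06), which is 1.47 and 1.85 below the other members. Nearly all of its 31-base words are shared with Rps27rt, a retrotransposed copy, yet 97.3% of the summed counts stood at Rps27. Its relatives in the fall were Rps7 (-2.47 in CD8, -3.12 in CD4), Rps24 (-2.48 and -2.84), and in CD4 Rps14 (-2.77). Rps24 had 1439, 1960 and 1708 CPM in Cat-Tg CD8 pre-tx and 325, 313 and 275 CPM post-tx. Only Rps27 departed below the others in CD8, and Rps27, Rps7, Rps24 and Rps14 did in CD4.

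Rps27l, the p53-responsive paralog of Rps27, parted from the other members in the opposite direction. It had 80.6, 103 and 89.9 CPM in Cat-Tg CD8 pre-tx and 169, 174 and 168 CPM post-tx, with no overlap and the post-tx libraries higher. Its log2 fold change was 0.90 ± 0.427, which did not pass (adjusted p = 0.148), but relative to the other members it stood 2.32 ± 0.407 higher (adjusted p = 0.000727, edgeR on the member scale). In Cat-Tg CD4 it had 97.4, 153 and 99.5 CPM pre-tx and 84.6, 110 and 101 CPM post-tx, so the groups overlapped while the other members fell, and the departure was 1.55. Corrected for transcript length and GC content, its fold changes against all genes moved to 2.30 in CD8 and 1.41 in CD4, and those of Rps27 to -1.94 and -2.66.

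Another 6 genes departed above the others in both Cat-Tg comparisons: Rpl29, Rpl10, Rpl28, Rpl7a and the paralogs Rpl36al and Rpl7l1. Rpl29 had 839, 836 and 1030 CPM in Cat-Tg CD8 pre-tx and 1018, 854 and 879 CPM post-tx. The groups overlapped, the log2 fold change was 0.02, and Rpl29 stood 1.45 above the other members in CD8 and 1.62 in CD4. Rpl10, among the last proteins to join the large subunit, had 887, 691 and 882 CPM in CD8 pre-tx and 841, 772 and 768 CPM post-tx, and departed by 1.38 in both cell types. With the counts of its copies added, its fold change went from -0.05 to -0.51 in CD8 and from -0.36 to -0.82 in CD4. Rpl7l1, thought to act in ribosome assembly in the nucleolus, had 129, 104 and 115 CPM in CD8 pre-tx and 110, 128 and 106 CPM post-tx, and departed by 1.40 in CD8 and by 1.5 in CD4. Rpl36al departed by 1.57 and 1.32, Rpl7a by 1.12 and 1.17, and Rpl28 by 1.17 and 1.21. The departure of Rpl28 in CD8 was kept in only 1 of 6 fits that left out a library. In CD4 Rplp0 (1.11) and Rpl8 (1.16) also departed above.

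**Figure D4:**
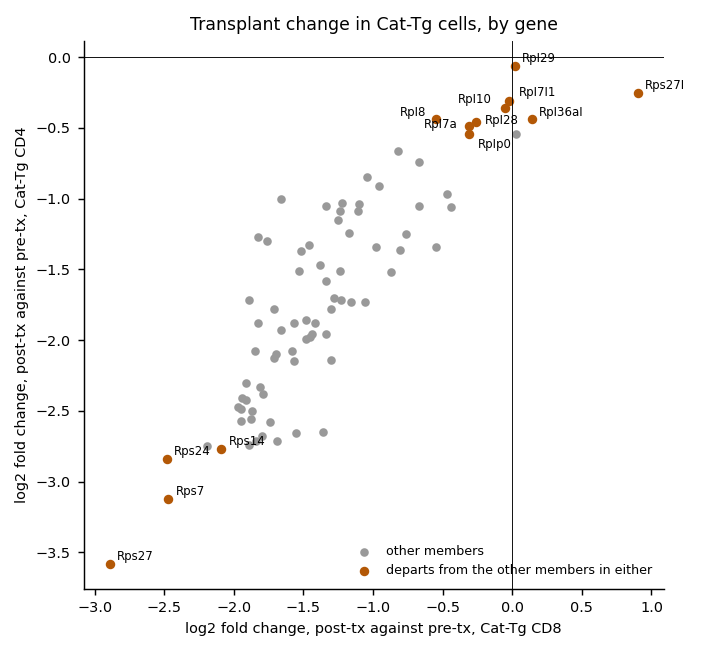
Log2 fold change of each member, post-tx against pre-tx, in Cat-Tg CD8 (horizontal) and Cat-Tg CD4 (vertical), 1 point per gene, with members that depart from the others in either cell type named in orange. Rps27 lies at the lower left at -2.89 and -3.58, and Rps27l at the upper right at 0.90 and -0.25, beside Rpl29, Rpl10, Rpl7l1 and Rpl36al.

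Rps27l departed above the other members in the transplant comparison of each genotype and cell type, by 2.32 in Cat-Tg CD8, 1.55 in Cat-Tg CD4, 2.05 in WT CD8 and 1.61 in WT CD4. The ratio of a paralog to its parent gene within a library does not depend on scaling to other genes. The ratios given here are of counts and hold no correction for transcript length or GC content. These ratio tests were chosen after the values were seen. Those over 4 combinations hold the libraries labelled WT pre-tx, and each was repeated with same-numbered CD8 and CD4 libraries kept together, for which the smallest p is 0.005 over the 4 combinations and 0.1 within Cat-Tg. Per 1000 counts of Rps27 there were 17 to 56.1 counts of Rps27l in all 12 pre-tx libraries and 110 to 341 in all 12 post-tx libraries. The ranges do not overlap, in Cat-Tg or in WT. The mean difference was 3.13 on the log2 scale (range over the 4 combinations of genotype and cell type 2.24 to 3.80, exact permutation test p = 1.25e-05, the smallest possible, adjusted over 4 pairs 5e-05). With the numbers kept together the exact permutation p was 0.005, adjusted 0.01. Within Cat-Tg alone it was 3.57 (exact permutation p = 0.005, the smallest possible, adjusted 0.00667), and 0.1 with the numbers kept together. The cell-division list moved between pre-tx and post-tx in the same libraries, and its part in the ratio was not tested.

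Rpl36al per 1000 Rpl36a counts stood at 241 to 337 in Cat-Tg CD8 pre-tx and 1060 to 2100 post-tx, and at 345 to 463 in Cat-Tg CD4 pre-tx and 1870 to 2050 post-tx. In Cat-Tg the difference was 2.29 on the log2 scale (exact permutation p = 0.005, adjusted 0.00667), and over all 4 combinations it was 1.40 (exact permutation p = 0.00137, adjusted 0.00274), with WT CD8 the exception at -0.83. With the numbers kept together these exact permutation p were 0.1 and 0.005. Rpl7l1 per 1000 Rpl7 counts stood at 34.3 to 48.2 in Cat-Tg CD8 pre-tx and at 83.6 to 102 post-tx. The Cat-Tg difference was 1.61 (adjusted p = 0.00667, exact permutation), but over the 4 combinations only 2 were higher (mean 0.66, exact permutation p = 0.0254). With the numbers kept together neither passed, at 0.1 and 0.08 in the exact permutation test. Rpl22l1, a paralog that is known to rise when Rpl22 is lost, had an Rpl22 ratio that differed by 0.11 in Cat-Tg (exact permutation p = 0.54). In Cat-Tg CD8 the ratio was 352 to 479 per 1000 Rpl22 counts pre-tx and 516 to 568 post-tx, without overlap, and in Cat-Tg CD4 it was 362 to 431 and 266 to 423. Over the 4 combinations the ratio was 0.45 higher post-tx (exact permutation p = 0.015, adjusted 0.02), with 3 of 4 higher, and with the numbers kept together the exact permutation p was 0.025. Rpl22l1 had 181, 179 and 133 CPM in Cat-Tg CD8 pre-tx and 40.1, 66.1 and 62.3 CPM post-tx, and its level fell with that of Rpl22.

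**Figure D5:**
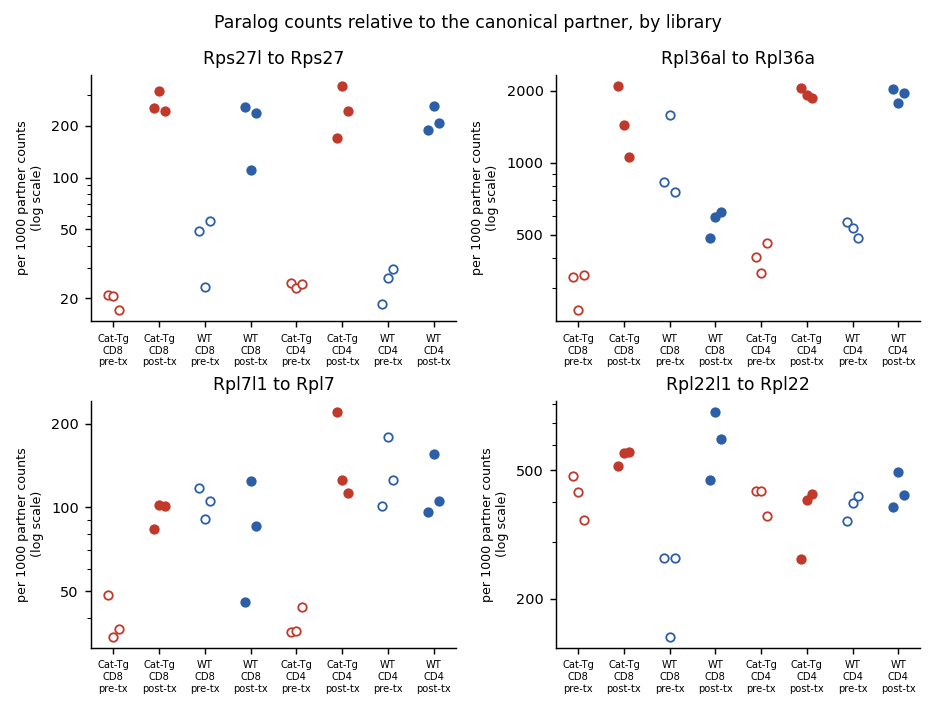
Counts of 4 paralogs per 1000 counts of the parent gene (log axis), 1 point per library in the 8 groups (red Cat-Tg, blue WT, open pre-tx, filled post-tx). For Rps27l to Rps27 all pre-tx points lie at 56.1 or below and all post-tx points at 110 or above.

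After transplantation of WT cells the picture in CD4 was weaker and in CD8 it was opposite. These comparisons rest on the libraries labelled WT pre-tx. In WT CD4, 24 members fell and 2 rose, where 9.63% of all genes fell and 14.7% rose, and the median was -0.56 for members and -0.13 for all genes. On the lower side 45 members did not overlap, against 19.3% of all genes, and on the higher side 10, against 24.7%. Rps27 had 2966, 1585 and 1602 CPM pre-tx and 569, 326 and 528 CPM post-tx. All post-tx libraries were lower, and the log2 fold change was -2.11 ± 0.319 (adjusted p = 0.000213), which became -0.34 and was no longer called with correction for length and GC content. Rps6, at 884, 766 and 828 CPM pre-tx and 735, 732 and 927 CPM post-tx, overlapped between the groups, with a log2 fold change of -0.05. The 2 members that rose were Rps27l (1.07, from 41.6 to 55 CPM up to 85 to 109 CPM) and Rpl36al (1.25, from 71.2 to 113 CPM up to 169 to 250 CPM). Of the 7 departing members, where 26% of all genes departed, Rps27 was below and Rps27l, Rpl36al, Rpl24, Rpl7, Rpl29 and Rpl4 were above. The calls of Rpl7 and Rpl4 were kept in only 2 and 3 of 6 fits that left out a library.

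In WT CD8, 60 members rose and none fell, where 13.2% of all genes rose and 10.4% fell. The median was 1.48 for the members and -0.23 for all genes, and 60 members did not overlap on the higher side, against 14.1% of all genes. Rpl13a had 373, 436 and 384 CPM pre-tx and 4161, 2816 and 2118 CPM post-tx, a log2 fold change of 2.93 ± 0.334 (adjusted p = 2.83e-05). Rps3 rose by 2.45, Rpl38 by 2.65, Rpsa by 2.60 and Rplp0 by 2.39, and Rps6 had a change of 0.60 (adjusted p = 0.235). Rps27l had 30, 25.3 and 37.9 CPM pre-tx and 728, 183 and 331 CPM post-tx, and rose by 3.74. Rpl39l, a paralog known from testis and growing cells, had 1, 1 and 0 counts in WT CD8 pre-tx and between 23 and 117 counts in each other CD8 library, so no fold change is given for it. Of 19 departing members, 12 were above and 7 below, where 44.6% of all genes departed, and the 12 include Rpl39l. Only 9 of the 19 kept the call in every fit that left out a library. Scaled to library totals only, 23 members were called in place of 60, and 34 when only the 6 libraries compared were fitted.

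The 3 WT CD8 post-tx libraries differed widely among themselves. Rplp0 had 1786, 12399 and 6546 CPM, and Rpl8 460, 3430 and 2013 CPM. Rps24 was highest where those were lowest, with 1101, 145 and 520 CPM, as was Rpl21 with 1805, 188 and 756 CPM. The same 3 libraries had the shortest transcripts among the counts that are not of members, with a mean length of 1983 to 2102 bases against 2324 to 2728 bases in all other libraries.

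Between Cat-Tg and WT cells after transplantation, fewer members were called than before it. In CD8 post-tx 10 members were lower in Cat-Tg and none higher, where 0.563% of all genes were lower and 1.09% higher, and the median was -0.81 for the members and -0.18 for all genes. On the lower side 46 members had no overlap between the groups, against 12.7% of all genes. Rps14 was the furthest, at -2.11 ± 0.342 (adjusted p = 0.0127), and Rpl39 stood at -1.91 (adjusted p = 0.0221). Further values, not an order of all members, were Rps27 at -1.63, Rpl41 at -1.62, Rpl13a at -1.58 and Rpl38 at -1.43. In the 6 fits that left out a library, the fold change calls of Rps14, Rpl39 and Rpl13a were each lost in 2. That of Rpl41 was lost in 3, and that of Rpl38 in 5. Rpl13a had 942, 980 and 1118 CPM in Cat-Tg and 4161, 2816 and 2118 CPM in WT. Rps6, at 1058, 1148 and 981 CPM in Cat-Tg and 1269, 520 and 921 CPM in WT, overlapped. Rps14 alone departed from the other members (-1.29), where 10.4% of all genes departed, and its call was kept in 4 of 6 fits that left out a library. Without 1 of the libraries the count of called members ran from 0 to 24 and it was 0 when only these 6 libraries were fitted.

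In CD4 post-tx no member was called in either direction, where 3.69% of all genes were higher and 6.47% lower in Cat-Tg. All 10 red-cell genes measured (median 4.27) and 10 of 15 myeloid markers (median 1.96) were higher in Cat-Tg, and 2 of 14 T-cell markers were lower. The red-cell genes summed to 4570 to 27200 CPM in Cat-Tg and 649 to 1110 CPM in WT, and the myeloid markers to 4160 to 5710 CPM and 1080 to 1540 CPM. Their part in the values of the members was not tested. By edgeR 1 member had an unadjusted p under 0.05, and DESeq2 and limma-voom also called 0. The median was -0.10 for the members and -0.19 for all genes. The groups did not overlap for 7 members, all lower in Cat-Tg, against 19.6% of all genes on that side and 8.82% on the other, and no member departed from the others, where 7.34% of all genes did. Rps27 had 502, 321 and 416 CPM in Cat-Tg and 569, 326 and 528 CPM in WT. Rps6 had 670, 695 and 770 CPM beside 735, 732 and 927 CPM, and Rps27l 84.6, 110 and 101 CPM beside 107, 85 and 109 CPM. The levels overlapped in each case, with log2 fold changes of -0.20 ± 0.306 (SE) for Rps27, -0.17 ± 0.235 for Rps6 and -0.03 ± 0.251 for Rps27l. Over both cell types the summed share was 2.15 points lower in Cat-Tg post-tx (exact two-sided permutation p = 0.03), and this p reached 0.085 without 1 library and was 0.1, the smallest possible, with same-numbered CD8 and CD4 libraries kept together.

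Before transplantation the members were higher in Cat-Tg than in the libraries labelled WT pre-tx. In CD8 pre-tx the groups did not overlap for any of the 82 members, with Cat-Tg higher, against 17% of all genes that did not overlap with Cat-Tg higher and 16% with Cat-Tg lower, and 78 were called higher, against 4.5% of all genes. The 4 members not called were Rpl7l1 (0.54), Rpl36al (0.82), Rpl5 (1.45) and Rpl8 (1.47). Rpl7l1 and Rpl36al departed below the other members (-1.67 and -1.41), as 3 members did in either direction with Rpl39l, where 63.4% of all genes departed. Rps7 had 2838, 3579 and 3500 CPM in Cat-Tg and 471, 233 and 433 CPM in WT, and these were far apart in each library. All 17 genes of the B-cell list were lower in Cat-Tg in this comparison, and their part in it was not tested.

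In CD4 pre-tx 51 members were higher in Cat-Tg and none lower, where 13.3% of all genes were higher and 7.15% lower. The median was 1.10 for the members and 0.03 for all genes, and the groups did not overlap for 61 members with Cat-Tg higher, against 21.8% of all genes, and for 1 with Cat-Tg lower, against 14.8%. The members did not move as 1 block here: 10 departed, 6 above and 4 below, where 27.8% of all genes departed. Below were Rpl8 (-1.52), Rplp0 (-1.41), Rps2 (-1.22), which is needed for small-subunit assembly, and Rpsa (-1.14), and above were Rpl21 (1.43), Rps24 (1.31), Rpl30 (1.31), Rps3a1, Rpl7 and Rpl26. The calls of Rps3a1 and Rpl7 were kept in only 2 and 1 of 6 fits that left out a library. Rplp0 had 2842, 2775 and 3048 CPM in Cat-Tg CD4 pre-tx and 4922, 3545 and 3019 CPM in WT, overlapping at the edge. Rpl21 had 1464, 2612 and 1544 CPM in Cat-Tg and 361, 311 and 298 CPM in WT, with a wide gap. Rps6 had 2359, 4260 and 2505 CPM beside 884, 766 and 828 CPM, a log2 fold change of 1.88 ± 0.243 (adjusted p = 0.000112). None of the 3 stalk genes was called, and large-subunit (28 of 43) and small-subunit genes (20 of 31) were called at like shares. Rpl8, Rplp0, Rps2 and Rpsa, which stood low here, are also the genes that were highest in replicate 2 of WT CD8 post-tx, where Rpl21, Rps24 and Rpl30 were lowest.

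The difference of the transplant effect between genotypes, tested as an interaction, was below 0 for 77 members in CD8 and none was above (median -2.88, where 4.77% of all genes were below and 5.94% above). With Rpl39l set aside for its low counts, Rps14 was furthest, at -5.32, Rps27 stood at -4.2 and Rps6 at -2.29. In CD4 it was below 0 for 41 members and above for none (median -1.13, with 14% of all genes below and 7.25% above). Rpl21 stood at -2.96, Rpl30 at -2.95, Rps6 at -2.05 and Rps27 at -1.47. Both results hold the libraries labelled WT pre-tx.

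CD8 and CD4 cells were compared in 1 fit of all 24 libraries, and the median member was higher in CD8 in all but the WT pre-tx setting. In WT post-tx 60 members were higher in CD8 and none lower, where 5.98% of all genes were higher and 7.15% lower, with a median of 1.57. Rps14 (3.18) and Rpl39 (2.85) were furthest, and Rpl7l1 (-0.13) and Rpl4 (0.05) did not differ by more than their SE. In Cat-Tg post-tx 8 members were higher (1.49% of all genes were), with a median of 0.65, and Rps2 (1.36, adjusted p = 0.0118) and Rpl39 (1.23, adjusted p = 0.03) stood highest. In Cat-Tg pre-tx all 82 values were positive, with a median of 0.55, but Rpsa (1.28, adjusted p = 0.0282) was the only member called (0.366% of all genes were), and 38 members did not overlap on the higher side and none on the lower, against 8.04% and 9.64% of all genes. In WT pre-tx, where the coreceptors did not separate the groups, no member was called by edgeR (0.00523% of all genes were higher and 0.0314% lower), 43 had an unadjusted p under 0.05, and DESeq2 called 14 lower. The counts of called members in Cat-Tg ran from 0 to 2 pre-tx and from 0 to 22 post-tx when 1 library was left out. The cell types share mice, and blocking on the replicate number gave 0 called members in Cat-Tg pre-tx, 1 in Cat-Tg post-tx and 47 in WT post-tx.

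Other genes of translation moved in part with the members. These lists were written with earlier results of these data known. Of all genes, 5.25% fell and 8.73% rose in Cat-Tg CD8 post-tx against pre-tx, and 29% fell and 16.2% rose in Cat-Tg CD4. Of 20 translation elongation and TOP factors tested, 6 fell and 0 rose in Cat-Tg CD8 post-tx against pre-tx (median -0.62), and 11 fell and 2 rose in Cat-Tg CD4 (median -0.77). Eef1a1, the elongation factor that brings aminoacyl-tRNA to the ribosome, fell by 1.55 in CD8 (adjusted p = 0.0102) and by 1.79 in CD4 (adjusted p = 0.000165). Rack1, a scaffold on the small subunit, had -0.95 in CD8 (adjusted p = 0.0604) and fell by 0.98 in CD4. Eef2, the translocation factor, had 0.39 and -0.18 and passed in neither. Of 27 initiation factors, 3 rose and 1 fell in CD8 (median 0.31) and 6 rose and 4 fell in CD4 (median 0.12). Eif4h, a helper of the cap-side helicase, rose by 1.49 and 0.93.

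Ribosome assembly genes did not fall as the members did. Of 40, 1 rose and 1 fell in Cat-Tg CD8 (median -0.01), and 10 rose and 4 fell in Cat-Tg CD4 (median 0.07). Npm1, a nucleolar chaperone, had -1.08 in CD8 (adjusted p = 0.0951) and fell by 0.83 in CD4, and Ncl, nucleolin, had -0.52 and 0.14. Of 14 genes of RNA polymerase I, which makes ribosomal RNA, 1 fell in CD8, and 1 rose and 2 fell in CD4. Of 19 genes of mTORC1 and TOP control, 3 rose in CD8 and 5 in CD4, and none fell. Myc, which drives ribosome production, rose by 1.82 in CD4 (adjusted p = 0.00148) and had 0.18 in CD8. Of 78 mitochondrial ribosomal protein genes, 1 rose and 1 fell in CD8 (median 0.17), and 7 rose and 18 fell in CD4 (median -0.29). For all genes the shares were 8.73% higher and 5.25% lower in CD8, and 16.2% higher and 29% lower in CD4. In WT CD8, against the libraries labelled WT pre-tx, 13.2% of all genes rose. Of the lists, 11 of 20 elongation factors, 12 of 27 initiation factors and 50 of 78 mitochondrial ribosomal proteins rose there.

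The changes were also set against the start sequence and the transcript length of the members. In Cat-Tg CD4 post-tx against pre-tx the 25 members with a C or T run of at least 8 bases had a median log2 fold change of -1.88, and the 37 with a shorter run -1.52. The pair of medians was -1.46 and -1.30 in Cat-Tg CD8. Across the members, transcript length and log2 fold change had a Spearman correlation of 0.01 in Cat-Tg CD4 and -0.01 in Cat-Tg CD8, and across all genes 0.02 and 0.01. In CD8 post-tx, Cat-Tg against WT, the correlation was 0.35 across members and 0.16 across all genes, with the longer member transcripts less reduced.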

How the data were processed

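RNA of sorted CD4+ and CD8+ spleen T cells was copied with a SMART-Seq kit from 1 ng of total RNA and sequenced as 24 libraries in 8 groups of 3 mice. The authors quantified transcripts with kallisto 0.46.2 and deposited, per library, an estimated count and a TPM for each of 117497 transcripts. The submitters' notes name mm9 and limma, but 116428 transcripts matched GENCODE M21, a GRCm38 annotation, which was used to sum both units to genes. The other 1069 stayed out, and at least 99.64% of each library's counts remained.

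Estimated counts were rounded and tested with edgeR 4.0.16 (TMM, robust quasi-likelihood), per cell type in 12 libraries, or in all 24 for CD8 against CD4, on genes over 1 CPM in at least 3 libraries. SE is the log2 fold change divided by the root of F. DESeq2 1.42.0 and limma 3.58.1 were alternatives. Fits were tested on simulated data: of 100 genes changed by 4 on the log2 scale among 15311, 61 were called in the CD8 pre-tx genotype comparison, and 19 of 100 changed by 2. The changed genes were drawn at random from those with a mean over 1 CPM, so these rates do not describe the members. The edgeR p-values and SE rest on the spread between libraries within groups, over all groups of a fit. In fits of all 24 libraries, CD8 and CD4 libraries of the same mice enter as independent. SD values are between the 3 libraries of a group. The floor is 3 counts per library and covers counting error only.

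Members, lists and tests were chosen with earlier results of these data known. Named genes were the paralogs with their parents, members with a known extra role, the 3 of highest length-scaled level, departing members, the 2 highest and 2 lowest changes of each comparison, and up to 3 genes of each translation list. The values of 1 gene under this rule are not reported here. CD8 and CD4 libraries of a group share mice, but the sources do not tie the replicate number to the mouse. Same-numbered libraries did not deviate together (correlations between -0.263 and 0.176, never all over 0.1), so the reported fits hold no pairing, and fits with the number as a block were alternatives. The number of deposited columns of no sample was 0.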

Additional observations from a re-analysis of the deposited data

Results flagged for a closer look

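The effect of transplantation on cytosolic ribosomal protein genes differed between the genotypes by an interaction test in edgeR. In CD8 cells it was lower in Cat-Tg than in WT for 77 of 82 members (4.77% of all genes), and in CD4 cells for 41 of 82 (14% of all genes). No member was higher in either cell type. Both values hold the libraries labelled WT pre-tx, in which the CD4 and CD8 coreceptors did not match the labels, and the part of those libraries in the result was not tested. Leaving out 1 library gave 61 to 78 members in CD8 and 24 to 56 in CD4.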

How the results depend on the processing

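Of 212 other settings tried on the counts of called members, besides leaving out a library, 170 stayed within 1.5 times of the reported count in the same direction, 42 moved further and 0 reversed. A fold change of at least 2 on the log2 scale left 51 members in CD8 pre-tx and 8 in CD4 pre-tx (Cat-Tg against WT), 5 in Cat-Tg CD8, 26 in WT CD8, 28 in Cat-Tg CD4 and 1 in WT CD4 (post-tx against pre-tx), 19 in the CD4 interaction and 25 in WT post-tx CD8 against CD4. At least 1 left 15 in WT CD4, where a minimum of 10 counts in every library gave 46. Library totals alone gave 23 in WT CD8 and 39 in WT post-tx CD8 against CD4, and fitting only 6 libraries 34 in WT CD8. All 24 libraries together gave 33 in CD4 pre-tx. For the 10 members lower in Cat-Tg CD8 post-tx the counts were 4 with library totals, 30 with DESeq2, 4 with length and GC correction, 0 with 6 libraries, 23 with 24 libraries and 1 at a change of 2. For the 1 member of CD8 against CD4 in Cat-Tg pre-tx they were 0 with TMM without the members, without a filter, with the 10-count minimum, with sharing copies added and at a change of 2, 4 with DESeq2, 3 with limma-voom, 2 with pseudogenes added and 7 with length and GC correction. For the 8 of Cat-Tg post-tx they were 1 with library totals, 13 with DESeq2, 15 with limma-voom, 5 without a filter, 5 with pseudogenes, 15 with length and GC correction, and 4 and 0 at changes of 1 and 2. In WT pre-tx DESeq2 gave 14 and the 10-count minimum 3. The cause was not tested in any of these.

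CD8 and CD4 libraries of a group share mice, but the sources used here do not state that a number marks the mouse. Elsewhere same-numbered libraries share only a number. With the replicate block the count was 2 in CD8 post-tx (Cat-Tg against WT), 0 and 1 in CD8 against CD4 of Cat-Tg pre-tx and post-tx, and within 1.5 times elsewhere.

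Leaving out 1 library gave 0 to 24 called members in CD8 post-tx, 31 to 52 in CD4 pre-tx, 31 to 51 in Cat-Tg CD8, 12 to 28 in WT CD4, 24 to 56 in the CD4 interaction, and 0 to 2 and 0 to 22 in CD8 against CD4 of Cat-Tg pre-tx and post-tx. Departing members then numbered 0 to 4 in CD8 post-tx, 6 to 10 in CD4 pre-tx, 11 to 26 in WT CD8 and 10 to 20 in Cat-Tg CD4. The share was 3.12 to 3.71 points higher in Cat-Tg than in WT over all groups (3.37 with all libraries, p up to 0.0591) and -2.53 to -1.47 points apart post-tx (p up to 0.085). With same-numbered CD8 and CD4 libraries kept together, chosen after seeing the data, no share difference passed: -5.0 and, in Cat-Tg, -10.5 after transplantation, and 3.37 and, post-tx, -2.15 between genotypes. The cause is the number of arrangements in the tests within Cat-Tg or post-tx, which cannot go below 0.1. Of 1432 settings tried on single genes and paralog ratios, 1365 stayed on the same side of the threshold, 67 no longer passed it and 0 reversed. The single genes were entered only in comparisons where they had been called. Low counts limit Rpl39l, and reads shared with copies limit Rpl5, Rpl12 and the 4 other members under 50% of such counts.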
